A study of Homo sapiens with 4 samples.

Results

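RAB GTPases are small proteins that mark the membranes of the cell. The genes described here are the rows of the deposited count table whose symbol is RAB, a number and at most a further letter and digit, which gave 61 genes of 25737. SKOV-3 is an established human ovarian cancer cell line, and RAME is rosmarinic acid methyl ester, a derivative of the plant phenol rosmarinic acid. RNA of cells labelled SKOV-3 was sequenced in 4 libraries to ask which transcripts RAME altered: 2 libraries were from controls in the solvent DMSO, whose time is not given, and 2 were from cells treated with RAME at 40 µM for 24 h. All were kept in McCoy’s 5A medium with serum, and no source says whether the 2 libraries of a group stem from different cultures. The p-values therefore rest on the spread between these libraries, which may be technical.

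A RAB protein switches between a GTP-bound form, which recruits effectors such as tethers and motors, and a GDP-bound form. Exchange factors (GEFs) load GTP, GTPase-activating proteins (GAPs) promote its hydrolysis, and the protein GDI extracts the lipid-modified RAB from the membrane. RABs of the endoplasmic reticulum (ER) and Golgi direct early secretory traffic, those of the endosome direct uptake, recycling and delivery to the lysosome, and secretory RABs direct vesicles to the plasma membrane. The 61 genes were placed in these classes by the compartment each is best known for, which gave 16 ER-Golgi, 25 endosomal and 15 secretory RABs, and 5 others.

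Library totals were 1441575 to 2543566 reads. The libraries were made from the 3′ end of the RNA, so that 1 transcript gives about 1 read whatever its length, and levels are given as counts scaled to the library total (CPM) normalized by TMM. Over 4517 genes with enough reads, edgeR called 292 higher and 320 lower with RAME at an adjusted p under 0.05, and with upper quartile scaling 381 and 261. Most markers of the label had few or no reads. Of 13 epithelial and ovarian cancer markers 8 had a read, with a summed level of 8.42 to 11.7 CPM in DMSO and 8.09 to 18.7 CPM in RAME. PAX8 gave most of these reads, with 19 and 18 in DMSO and 24 and 9 in RAME. ERBB2, EPCAM, KRT7, KRT19 and MSLN were at 0 in every library. Genes used by nearly every cell were also low, as LDHA (DMSO 10 and 2 reads, RAME 13 and 17 reads) and B2M (DMSO 15 and 11 reads, RAME 21 and 28 reads), both looked up after the zeros were seen. Whether the zeros reflect the cells or the counting of these genes was not tested. Of 25 markers of other cell types 14 had a read, with sums of 32.6 to 85.5 CPM in DMSO and 46.2 to 91.6 CPM in RAME, mostly from ALB and COL1A2. ALB had 149 and 5 reads with DMSO and 101 and 40 with RAME, so its DMSO libraries differed widely. COL1A2, a fibroblast collagen, had 42 and 58 reads with DMSO and 14 and 12 with RAME (log2 fold change −1.23, edgeR adjusted p = 0.142). The other collagens on the list had few reads and did not both fall. COL1A1 had 6 and 6 reads with DMSO and 1 and 8 with RAME, and COL3A1 had 2 and 3 against 4 and 10. The immune markers PTPRC and CD3E and the endothelial markers PECAM1 and CDH5 were at 0. The part of any other cell type in the RAB values was not tested. In RNA of whole cultures, fewer cells with a transcript and less of it per cell cannot be told apart.

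Of all reads, the RABs together took 0.926% and 0.998% with DMSO and 0.878% and 0.764% with RAME. After TMM normalization their summed level was 8912 and 9721 CPM with DMSO and 9127 and 7845 CPM with RAME, so that the groups overlapped. The make-up of the family differed between the groups. Endosomal RABs made up 45.5% and 54.7% of the RAB reads with DMSO and 67.0% and 64.6% with RAME. Secretory RABs made up 20.4% and 18.7% with DMSO and 5.72% and 7.95% with RAME. ER-Golgi RABs made up 32.9% and 25.6% with DMSO and 26.9% and 26.9% with RAME. The groups did not overlap for the endosomal and secretory shares and overlapped for the ER-Golgi share. These shares were not tested, since with 2 libraries a group the smallest two-sided p of an exact permutation test is 0.333. The shares add up to the whole, so they are not independent of each other. Unlike its share, the summed endosomal level overlapped between the groups, at 4057 and 5314 CPM with DMSO and 6115 and 5072 CPM with RAME. The higher endosomal share therefore does not show a higher endosomal level. RAB10 alone held 96.9% and 98.5% of the secretory reads with DMSO and 93.5% and 94.9% with RAME. Without RAB10 the summed level of the RABs was 7149 and 7934 CPM with DMSO and 8639 and 7253 CPM with RAME, which overlapped as the sum with RAB10 did.

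**Figure D1:**
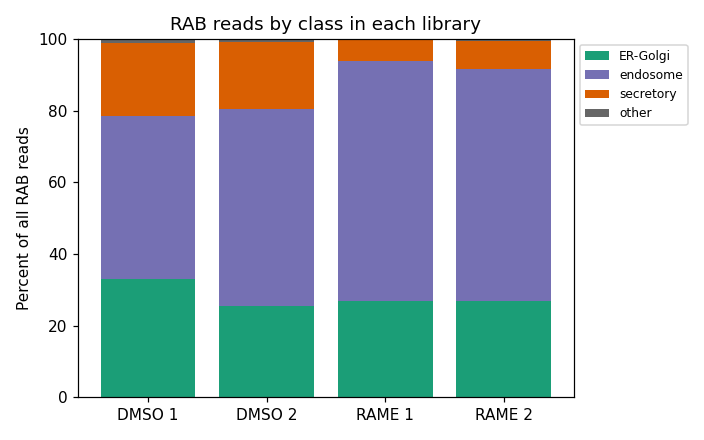
Percent of all RAB reads (vertical axis, 0 to 100) taken by ER-Golgi, endosomal, secretory and other RABs in each of the 4 libraries (1 bar a library, no error bar). The secretory part was 20.4% and 18.7% of the DMSO bars and 5.72% and 7.95% of the RAME bars, and the endosomal part was 45.5% and 54.7% against 67.0% and 64.6%.

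Of the 61 RABs, 17 had no read in any library, 24 had reads but too few to be tested, and 20 were tested, comprising 6 ER-Golgi, 11 endosomal and 2 secretory RABs and 1 other. A gene with few reads could pass this filter only through the group in which it was higher, so the counts below describe the tested genes and not the family. As for the markers above, whether few or no reads of a RAB reflect the cells or the counting was not tested. In edgeR's quasi-likelihood test, adjusted over all 4517 genes by Benjamini-Hochberg, 2 of the 20 were lower with RAME, RAB10 and RAB28, which is 10% beside 7.08% of all genes tested. None was higher, beside 6.46% of all genes, and DESeq2 and limma-voom also called none higher. At an unadjusted p under 0.05 there were 2 higher RABs (RAB5C and RAB12) beside 15.3% of all genes, and 5 lower RABs (RAB10, RAB28, RAB14, RAB7A and RAB6C) beside 16% of all genes. Both RAME libraries lay above both DMSO libraries for 4 RABs, beside 31.1% of all genes, and below them for 7, beside 29.5%. With 20 genes, none of these counts sets the family apart from the genes tested. The median log2 fold change of the 20 was −0.26, beside 0.007 for all genes tested. The study had also listed RAB10 and RAB28 among the lowered genes it chose on these samples, so their calls here are not independent evidence.

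**Figure D2:**
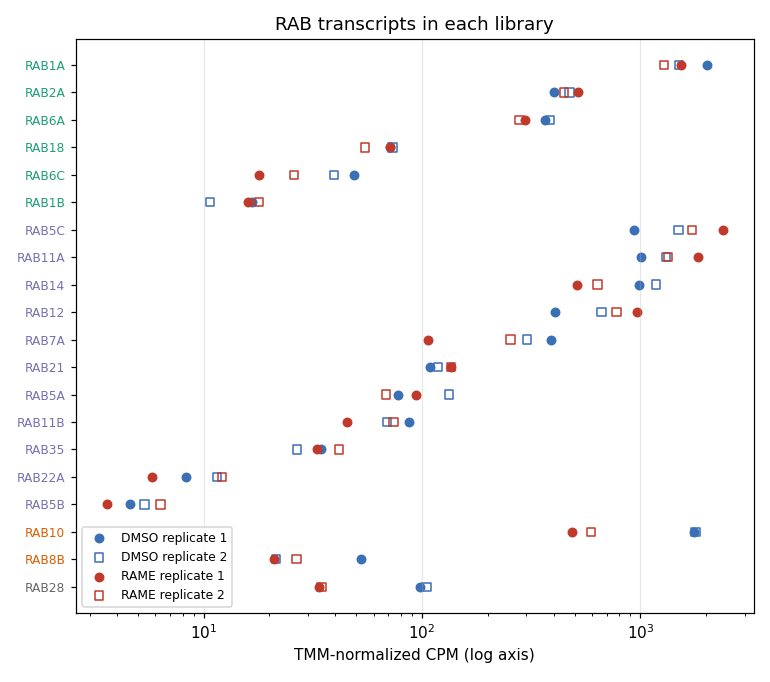
TMM-normalized CPM (log axis) of the 20 tested RABs, 1 row a gene and 1 point a library (blue DMSO, red RAME, filled circles replicate 1, open squares replicate 2; name colours are green ER-Golgi, purple endosomal, orange secretory, grey other). For RAB10 and RAB28 the red points lie apart to the left of the blue ones, at 488 and 592 against 1763 and 1787 CPM for RAB10, while for RAB1A, RAB2A and RAB1B the colours overlap.

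Among the secretory RABs, RAB10, which carries vesicles such as those of the glucose transporter GLUT4 to the plasma membrane, was the most abundant and fell with RAME. It had 4227 and 4665 reads with DMSO and 677 and 1025 with RAME. Normalized, these were 1763 and 1787 CPM against 488 and 592 CPM, or 1775 ± 16.5 and 540 ± 73.5 CPM (SD, n = 2 each). The 2 DMSO libraries nearly coincided, and both RAME libraries lay far below them. RAB10 was 3.28-fold lower with RAME (log2 fold change of RAME over DMSO −1.71, standard error or SE 0.27, 95% interval −2.31 to −1.12, edgeR adjusted p = 0.00458). It was called in 11 of 11 other ways of processing, with adjusted p (edgeR, DESeq2 or limma-voom) between 2.13e-07 and 0.00725. Among the RABs it ranked 2nd and 1st in reads with DMSO and 7th and 6th with RAME.

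RAB28, a RAB of the cilium that is mutated in a form of cone-rod dystrophy, was the only tested RAB outside the 3 transport classes, and it also fell. Its level was 98.0 and 105 CPM with DMSO and 33.9 and 34.7 CPM with RAME, from 235, 274, 47 and 60 reads. The groups did not overlap, and the libraries of each group lay close together. RAB28 was 2.95-fold lower with RAME (log2 fold change −1.56, SE 0.34, 95% interval −2.30 to −0.83, edgeR adjusted p = 0.0149). Its call was lost without RAME replicate 1 (log2 fold change −1.55, edgeR adjusted p = 0.0556), and over 11 other ways of processing its adjusted p lay between 0.00185 and 0.0556. RefSeq lists 5 pseudogenes named for RAB28, which can share reads with it, so its values are uncertain.

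The promoters of RAB10 and RAB28 are shown because these were the 2 RABs called, and whether they share a regulator was not tested. Given are the 250 bases before the RefSeq start of each gene (GRCh38.p14), 5′ to 3′ on the strand of the gene, with the GC box GGGCGG in capitals. RAB10 lies on the plus strand (chr2:26033834-26034083) and RAB28 on the minus strand (chr4:13484341-13484590).
RAB10: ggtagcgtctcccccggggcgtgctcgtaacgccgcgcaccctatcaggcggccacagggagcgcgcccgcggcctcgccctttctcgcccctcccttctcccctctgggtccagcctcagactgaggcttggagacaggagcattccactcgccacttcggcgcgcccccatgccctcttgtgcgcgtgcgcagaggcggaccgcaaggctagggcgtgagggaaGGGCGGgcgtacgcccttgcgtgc
RAB28: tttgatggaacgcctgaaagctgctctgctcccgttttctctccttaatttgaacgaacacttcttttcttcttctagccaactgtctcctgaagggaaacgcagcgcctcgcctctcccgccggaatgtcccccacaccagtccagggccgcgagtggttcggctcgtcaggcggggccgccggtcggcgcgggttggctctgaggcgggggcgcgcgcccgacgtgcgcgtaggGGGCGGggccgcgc
Both windows held 1 GC box, which starts 24 bases before the start of RAB10 and 14 bases before that of RAB28. GGGCGG, searched on both strands, was found in 42.3% of 27305 promoter windows of the same length, and in 15 of the 17 tested RABs with a window. The tested RABs had passed the filter on reads and the 27305 windows had not, so the sets are unlike. The share among all genes tested was not computed. The windows of RAB10 and RAB28 held on neither strand the CCAAT box (letters CCAAT), the E-box (letters CACGTG), the cyclic AMP response element (letters TGACGTCA) or a forkhead motif (letters TGTTTAC), nor the ER stress element, which contains the CCAAT box. These were found in 33.0%, 6.49%, 1.77%, 2.98% and 0.0806% of all windows. Among the tested RABs, CCAAT lay in the windows of RAB5C, RAB11B, RAB5B and RAB8B, and CACGTG in those of RAB21 and RAB5A. A match of letters is a description and does not show that a factor binds.

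The other secretory RABs had far fewer reads. RAB8B, which acts between the Golgi and the plasma membrane, had 52.6 and 21.4 CPM with DMSO and 20.9 and 26.6 CPM with RAME. The groups overlapped, and DMSO replicate 1 stood above the other 3 libraries (log2 fold change −0.63, SE 0.50, edgeR adjusted p = 0.425). RAB8A, its close relative with a role in cilium formation, had 4 and 11 reads with DMSO and 12 and 8 with RAME and was too low for the test. The ratio of RAME to DMSO over the group totals was 2.15, with a 95% exact binomial counting interval of 1.04 to 4.50, and in the fit with no filter on reads its adjusted p was 0.704. Intervals of this kind cover counting error only. RAB3A, RAB3B, RAB27B, RAB38 and RAB44, which serve regulated secretion and specialised granules, had no read. RAB13, RAB26, RAB27A, RAB37, RAB3C, RAB3D and RAB32 had 1 to 4 reads over all 4 libraries.

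Among the ER-Golgi RABs none of the 6 tested members was called in either direction by edgeR, DESeq2 or limma-voom. RAB1A, which directs ER to Golgi transport, was the most abundant of them. It had 2015 and 1499 CPM with DMSO and 1529 and 1283 CPM with RAME. The groups overlapped, and DMSO replicate 1 was the highest (log2 fold change −0.32, SE 0.27, 95% interval −0.92 to 0.28, edgeR adjusted p = 0.462). RAB2A, which acts between the intermediate compartment and the Golgi, had 401 and 473 CPM with DMSO and 520 and 446 CPM with RAME. These also overlapped (log2 fold change 0.14, 95% interval −0.47 to 0.76, edgeR adjusted p = 0.767). RAB6A, which directs retrograde traffic through the Golgi, had 365 and 386 CPM with DMSO and 296 and 279 CPM with RAME. Here both RAME libraries were below both DMSO libraries, but the test was not passed (log2 fold change −0.39, 95% interval −1.01 to 0.23, edgeR adjusted p = 0.387). The intervals of RAB1A, RAB2A, RAB18 and the endosomal RAB21 lay within 2-fold in either direction, which held for 14.1% of all genes tested.

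RAB6C is named here after its values were seen, since it is a retrocopy of RAB6A and the 2 can share reads. It had 48.8 and 39.4 CPM with DMSO and 18.0 and 26.0 CPM with RAME, and the groups did not overlap (log2 fold change −0.99, SE 0.42, edgeR adjusted p = 0.134). RAB6A gave 87.9% and 90.6% of the reads of RAB6A, RAB6B and RAB6C together with DMSO and 93.4% and 91.0% with RAME. RAB1B, the sister of RAB1A, gave 0.821% and 0.71% of the RAB1A and RAB1B reads with DMSO and 1.03% and 1.38% with RAME. It had 10.7 to 17.9 CPM over the 4 libraries and overlapping groups. RAB18, which acts on the ER and on lipid droplets, had 71.7 and 73.1 CPM with DMSO and 71.4 and 54.9 CPM with RAME. Of the untested ER-Golgi genes RAB30, a Golgi RAB, had the most reads in the DMSO libraries, 18 and 9 against 1 and 2 with RAME. Its ratio of RAME to DMSO was 0.179 (95% exact binomial counting interval 0.0347 to 0.581), and in the edgeR fit with no filter its adjusted p was 0.27. RAB6B, the neuronal relative of RAB6A, had 4 and 1 reads with DMSO and 4 and 3 with RAME, and RAB34 had 2 and 3 with DMSO and 0 and 1 with RAME. RAB2B, RAB33A and RAB33B had 1 or 2 reads over all 4 libraries, and RAB19, RAB36, RAB41 and RAB43 had none.

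**Figure D3:**
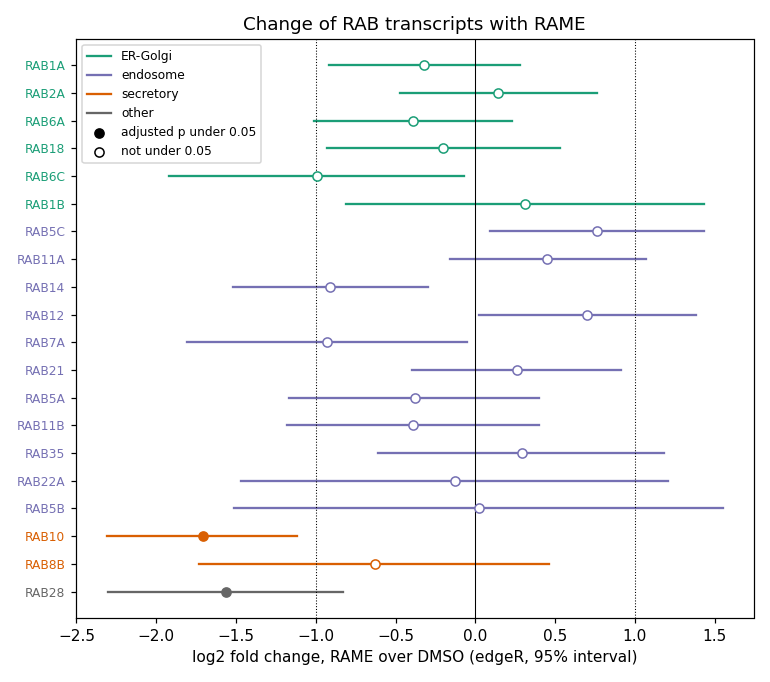
Log2 fold change of RAME over DMSO (edgeR) for the 20 tested RABs, with 95% intervals as lines and class as colour; filled points passed an adjusted p of 0.05 and dotted lines mark 2-fold. RAB10 (−1.71) and RAB28 (−1.56) are filled, and the other 18 points lie between −0.99 (RAB6C) and 0.76 (RAB5C).

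The endosomal RABs held the genes with the most reads after RAME and went in both directions, with 6 positive and 5 negative log2 fold changes and a median of 0.02, but none passed the test. RAB5C, which acts in the fusion of early endosomes, had 935 and 1497 CPM with DMSO and 2382 and 1720 CPM with RAME. Both RAME libraries were above both DMSO libraries, and the spread within each group was wide (log2 fold change 0.76, SE 0.31, 95% interval 0.09 to 1.43, edgeR adjusted p = 0.118). Over 11 other ways of processing its adjusted p lay between 0.0399 and 0.527, and it was called in 1 of them, without DMSO replicate 2. RAB5C ranked 5th and 3rd among RABs with DMSO and 1st in both RAME libraries. RAB5A had 77.6 and 133 CPM with DMSO and 93.7 and 68.2 CPM with RAME, and RAB5B had 3.6 to 6.35 CPM over the 4 libraries. RAB5C gave 91.9% and 91.5% of the reads of the RAB5 genes with DMSO and 96.1% and 95.8% with RAME. The exact 95% counting intervals, 90.8% to 93.0% and 90.6% to 92.3% against 95.4% to 96.7% and 95.1% to 96.5%, did not overlap between the groups. They leave out the spread between libraries, so this is not a test of the groups. The same kind of interval did overlap between the groups for the RAB1, RAB6, RAB8 and RAB11 genes. RefSeq names 2 pseudogenes for each of RAB5C, RAB11A and RAB1A that can share reads.

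RAB11A, which marks the recycling endosome, had 1008 and 1307 CPM with DMSO and 1826 and 1340 CPM with RAME. The groups lay close without overlapping, and the test was not passed (log2 fold change 0.45, 95% interval −0.16 to 1.07, edgeR adjusted p = 0.302). RAB11B had 87.6 and 69.3 CPM with DMSO and 45.4 and 73.9 CPM with RAME, which overlapped. RAB14, which acts between the Golgi and recycling endosomes, had 981 and 1177 CPM with DMSO and 510 and 636 CPM with RAME. Both RAME libraries were below both DMSO libraries, and the adjusted p lay just above the threshold (log2 fold change −0.91, SE 0.28, 95% interval −1.52 to −0.30, edgeR adjusted p = 0.0513). RAB14 was called lower in 4 of 11 other ways of processing, which were DESeq2, its size factors in edgeR, scaling by library size only and no filter on reads. Its adjusted p lay between 0.015 and 0.311 over all of them. Without RAME replicate 1 the log2 fold change was −0.76 and without RAME replicate 2 it was −1.08.

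RAB7A and RAB12 are given after their values were seen. RAB7A, which acts in the fusion of late endosomes with lysosomes, had 389 and 303 CPM with DMSO and 107 and 254 CPM with RAME. The 2 RAME libraries differed 2.37-fold (log2 fold change −0.93, SE 0.40, edgeR adjusted p = 0.139). Without RAME replicate 1 the log2 fold change was −0.44, and without RAME replicate 2 it was −1.68 (edgeR adjusted p = 0.00941, within a range of 0.00941 to 0.655 over the alternatives), so that the value of RAB7A turned on a single library. RAB12, which sends recycling cargo such as the transferrin receptor to lysosomes, had 408 and 664 CPM with DMSO and 964 and 776 CPM with RAME (log2 fold change 0.70, SE 0.31, edgeR adjusted p = 0.151). The DMSO libraries themselves differed 1.63-fold for RAB12 and 1.6-fold for RAB5C, with replicate 1 the lower for both. RAB21, which acts in integrin uptake, had 109 and 118 CPM with DMSO and 135 and 136 CPM with RAME, a small gap with little spread (log2 fold change 0.26, 95% interval −0.40 to 0.91).

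Of the other endosomal RABs, RAB35 (fast recycling at the plasma membrane) had 26.8 to 41.6 CPM and RAB22A (early endosome) 5.77 to 12.1 CPM over the 4 libraries, with overlapping groups. The untested endosomal RABs had few reads. RAB24, which acts in autophagy, had 19 and 3 reads with DMSO and 1 and 1 with RAME. RAB9A, which returns receptors from late endosomes to the Golgi, had 11 and 1 reads with DMSO and 0 and 0 with RAME. With 0 reads allowing up to 3 over the group, RAB9A was at least 2.49-fold lower with RAME, with the DMSO reads taken as exact. This bound rests on DMSO replicate 1, without which the DMSO group has 1 read and gives none. RAB4A, which acts in fast recycling, had 2 and 1 reads with DMSO and 5 and 5 with RAME. RAB39B had 0 and 1 reads with DMSO and 4 and 4 with RAME. In the edgeR fit with no filter the adjusted p was 0.297 for RAB24, 0.235 for RAB9A, 0.559 for RAB4A and 0.434 for RAB39B. RAB4B, RAB9B, RAB20, RAB25, RAB29, RAB39A and RAB42 had no read, and RAB15, RAB17 and RAB31 had 1 or 2.

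Of the RABs outside these classes, RAB23, which restrains Hedgehog signalling, had 21 and 6 reads with DMSO and 0 and 4 with RAME. Its ratio of RAME to DMSO was 0.238, with a 95% exact binomial counting interval of 0.0606 to 0.684, and in the edgeR fit with no filter its adjusted p was 0.357. RAB40C, a substrate receptor of a ubiquitin ligase, had 0 and 0 reads with DMSO and 1 and 2 with RAME. RAB40B had 1 read and RAB40A none.

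**Figure D4:**
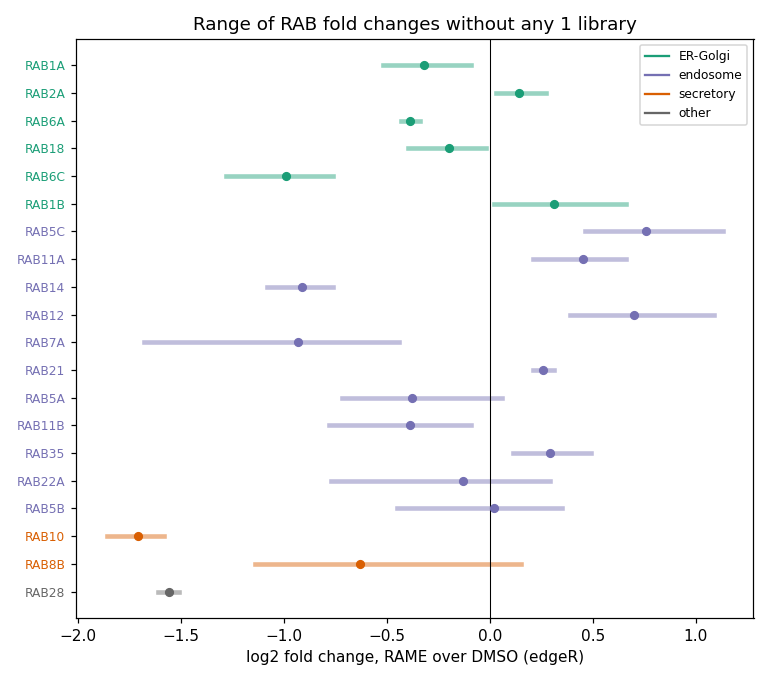
Log2 fold change of RAME over DMSO (edgeR) for the 20 tested RABs with all libraries (point) and its range when each of the 4 libraries was left out in turn (bar); colours give the class. RAB10 stays between −1.86 and −1.58 and RAB28 between −1.61 and −1.51, RAB7A spreads from −1.68 to −0.44, and the bars of RAB5A, RAB22A, RAB5B and RAB8B cross 0.

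The regulators and effectors of RABs were examined from 4 lists, of GDI and prenylation genes, GEFs, GAPs and effectors. Of 62 tested genes 2 were higher (3.23%, beside 6.46% of all genes) and 1 was lower (1.61%, beside 7.08%) at an adjusted p under 0.05 in edgeR. Among effectors, 1 of 21 tested genes was higher and 1 lower. The higher one was USO1, a vesicle tether that is recruited by RAB1, with 44.2 and 55.5 CPM in DMSO and 162 and 126 CPM in RAME. Both RAME libraries were above both DMSO libraries (log2 fold change 1.53, SE 0.33, edgeR adjusted p = 0.0146). Its call was lost without DMSO replicate 1 (adjusted p = 0.0504) and without RAME replicate 1 (adjusted p = 0.066) in edgeR, within a range of 0.0018 to 0.066 over 11 ways of processing. The lower one was OCRL, an inositol phosphatase that binds several endosomal RABs, with 126 and 106 CPM in DMSO and 46.1 and 53.1 CPM in RAME. The groups did not overlap (log2 fold change −1.22, SE 0.32, edgeR adjusted p = 0.0316). The study had also listed OCRL among the lowered genes it chose on these samples, so its call here is not independent evidence. The OCRL call was lost in 4 of 11 other ways of processing, without DMSO replicate 1, without either RAME replicate and with the replicate number as a block, and its adjusted p in edgeR and the other tools lay between 0.0152 and 0.186.

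Among GAPs, 1 of 14 tested genes was higher and none lower, with a median log2 fold change of 0.41. It was TBC1D10A, whose product acts on RAB35 and RAB27A, with 62.1 and 81.2 CPM in DMSO and 220 and 157 CPM in RAME. The groups did not overlap (log2 fold change 1.39, SE 0.33, edgeR adjusted p = 0.021). The TBC1D10A call was lost without DMSO replicate 1 (adjusted p = 0.0923) and without RAME replicate 1 (adjusted p = 0.121) in edgeR, within a range of 0.00397 to 0.121 over 11 ways of processing. Of 20 tested GEFs none was called by edgeR, and at an unadjusted p under 0.05 there were 2 higher and none lower. DESeq2 and limma-voom also called 0 GEFs. Of 7 tested genes of GDI, prenylation and RAB delivery none was called by edgeR, and at an unadjusted p under 0.05 there were 1 higher and 1 lower. Limma-voom called 0 and DESeq2 called 1, YIF1B. YIF1A and YIF1B, membrane proteins of the early secretory pathway, are named after their values were seen. YIF1B had 93.0 and 25.7 CPM in DMSO and 12.3 and 20.8 CPM in RAME, and DMSO replicate 1 stood far above the rest (log2 fold change −1.83, SE 0.60, edgeR adjusted p = 0.0637). Its adjusted p was 0.0291 in DESeq2, 0.00209 in edgeR with no filter and 0.606 in edgeR without DMSO replicate 1, within a range of 0.000364 to 0.606. YIF1A had 101 and 166 CPM in DMSO and 271 and 263 CPM in RAME, which did not overlap (log2 fold change 1.00, SE 0.33, edgeR adjusted p = 0.0636). Its adjusted p was 0.0465 in edgeR with upper quartile scaling, within a range of 0.0284 to 0.376. GDI2, which extracts RABs from membranes and is named after its values were seen, had 218 and 346 CPM in DMSO and 407 and 232 CPM in RAME, and the groups overlapped.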

How the data were processed

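RNA of cells labelled SKOV-3 was sequenced in 2 DMSO and 2 RAME libraries. The authors made QuantSeq 3′ libraries, read them single-end over 75 bases and used Bowtie2 for alignment. The build hg19 is named in the submitters' processing notes. For annotation, counting tool and strand setting the sources used here give nothing, and reads of overlapping genes may be mixed. Raw counts for each gene were deposited by the authors and are the values analysed. Normalized values on a log2 scale were also deposited and were left aside. The deposited fold and p-value columns hold the authors' own comparison and were not used.

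Counts were tested in R 4.3.3 with edgeR 4.0.16 (filterByExpr with a minimum count of 10 and total of 15, TMM, glmQLFit robust, glmQLFTest), without the replicate number. Benjamini-Hochberg adjustment ran over the 4517 genes tested. Standard errors are the log2 fold change over the root of F. The biological coefficient of variation was 29.9%. Counting intervals are exact binomial at 95%, and a count of 0 allows up to 3 reads over a group. These intervals cover counting error only. No source describes molecular identifiers, so copies made in amplification may be counted as reads and the intervals may be too narrow. The libraries of a group differed beyond sampling noise (chi-square per degree of freedom 28.8 for DMSO and 15.4 for RAME).

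The members, classes and lists were chosen with earlier results of these data known. Genes named are the called RABs, the 3 RABs with the most reads in each class, RAB10 and RAB28 from the study's list, and called list members with a mean of at least 20 reads (at most 4 a list). The remaining RABs are given to account for every member. Symbols of all 61 RABs matched RefSeq (GRCh38.p14), whose coordinates are given only for its own promoter sequences, since the counts are on hg19. Alternatives were DESeq2 1.42.0, limma-voom (limma 3.58.1), 3 other scalings, no filter, a block for the replicate number, and each library left out in turn. The scripts were tested on simulated counts.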

Additional observations from a re-analysis of the deposited data

How the results depend on the processing

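RABs called lower were 2, and 4 with no filter on reads (RAB10, RAB28, RAB14 and RAB7A). RABs called higher were 0. Leaving out each library gave 1 to 3 lower and 0 to 1 higher, where the higher one was RAB5C without DMSO replicate 2 and the loss was RAB28 without RAME replicate 1. Over all genes, leaving out each library gave 169 to 358 higher and 142 to 499 lower. The number of genes called lower was 320, and 185 in limma-voom and 481 with no filter. The log2 fold change of RAB8B ranged from −1.14 without DMSO replicate 2 to 0.15 without DMSO replicate 1, a reversal. The causes were not tested, beyond the fewer or more genes and libraries each setting holds. Upper quartile scaling moved the median log2 fold change of all genes from 0.007 to 0.117, and no RAB then changed its call. With the replicate block 206 genes were higher and 231 lower, and RAB10 and RAB28 were the RABs called. The same-numbered libraries deviated against each other (correlation −0.336 across genes), which gave no sign of a pairing by number. No source says whether the libraries were paired. A crossed replicate block, added after the data were seen, called 3 RABs higher and 5 lower, and 873 and 914 genes. RABs under the filter had 1 to 35 reads in all, and their counting intervals leave out the spread between libraries.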
